A study of Mus musculus with 6 samples.

Results

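Mitochondrial tRNA-Gly, mt-tRNA-Gly TCC, is the product of the mouse gene mt-Tg (ENSMUSG00000064359.1, chrM:9391-9458 of GRCm38, plus strand). Its listed tRNA-derived fragments (tRFs) were all rows of the table whose host tRNA is the mitochondrial tRNA-Gly with the anticodon TCC, which gave 20 of the 170 listed tRFs and 20 of the 147 that come from mitochondrial tRNAs. Small RNA was sequenced from pancreatic islets of 3 db/db mice (genotype BKS(D)-Leprdb/JOrlRj, labelled pre-diabetic) and 3 heterozygous db/+ mice (genotype BKS(D)-Leprdb/+/JorlRj, the controls). The strain names are those of the labels, and the study's methods give another colony for mice of this age, which was not settled here. All were 16 weeks old, male and on chow diet, with 1 library per mouse. The db mutation disrupts the leptin receptor gene Lepr, and db/+ mice carry it in 1 of their copies, so they are not wild type. Before library construction, the ends of the RNA were repaired and base methylations that block reverse transcription were removed, so that cut and modified tRNA could be read. The table holds only tRFs that were called decreased in db/db islets, so a lower level is how each fragment came to be listed and is given here as a description. Cut positions and lengths were not part of that choice. The proportions of the listed fragments within a library were not used to choose them, but they depend on how far each fragment fell, and pieces that were not called decreased are missing from them. Their tests therefore describe the listed fragments and not all fragments of the tRNA. The table holds tRFs alone, so islet markers were not checked.

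Mitochondria make their own proteins on their own ribosomes, and each tRNA that reads the codons is encoded in the mitochondrial genome. A tRNA folds into an acceptor stem and 3 arms, the D arm, the anticodon arm and the T arm, and receives the bases CCA at its 3′ end, which carry the amino acid. Enzymes that cut in the anticodon loop leave a 5′ piece and a 3′ piece of the tRNA, and cuts elsewhere leave longer or shorter pieces. Islet beta cells depend on mitochondrial respiration to couple glucose to insulin release.

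The mt-Tg transcript has 68 bases, and 71 with the added CCA, and positions are counted from 1 at its 5′ end. All 20 fragments matched this sequence without a mismatch at the positions that the table gives, and none of the 20 sequences occurred in another annotated transcript. The genome outside the annotated transcripts was not searched, so copies there were not looked for. Each fragment is named by its first and last position. The full tRNA, the most abundant fragment (1-51), the fragment that stops right after the anticodon (1-33), the CCA-ending fragment (33-71) and the internal fragment (21-57) with the highest mean over the 6 libraries, and the pairs of pieces that together make the full tRNA are printed below, with the anticodon TCC in capitals.
full mt-Tg with CCA: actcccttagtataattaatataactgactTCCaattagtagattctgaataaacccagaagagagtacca
1-51: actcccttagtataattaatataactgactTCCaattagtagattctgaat
1-33: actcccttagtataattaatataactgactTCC
33-71: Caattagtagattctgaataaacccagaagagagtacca
21-57: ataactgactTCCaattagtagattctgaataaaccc
1-35: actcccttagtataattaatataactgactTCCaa
36-71: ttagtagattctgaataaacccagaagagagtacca
1-37: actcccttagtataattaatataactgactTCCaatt
38-71: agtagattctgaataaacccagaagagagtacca

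Of the 20 fragments, 8 began at position 1 (5′ fragments), 9 ended at the last base of the added CCA (CCA-ending fragments) and 3 did neither (internal fragments). The 5′ fragments ended at positions 33, 35, 37, 39, 47, 50, 51 and 55. The CCA-ending fragments began at positions 21, 27, 31, 32, 33, 35, 36, 38 and 41. The internal fragments were 21-57, 27-60 and 33-70, and the last of these lacks only the final A of the CCA. Lengths ran between 31 and 55 nt, and no listed tRF of another mitochondrial tRNA was longer than 55 nt. Whether the read length set this limit, and with it the end of 1-55, was not tested. No listed 5′ fragment stopped before the anticodon, and no listed CCA-ending fragment began in the T arm. The 5′ and CCA-ending sets therefore overlap widely, and a 5′ fragment that ends in the T arm cannot come from the same tRNA molecule as any listed CCA-ending fragment.

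**Figure D1:**
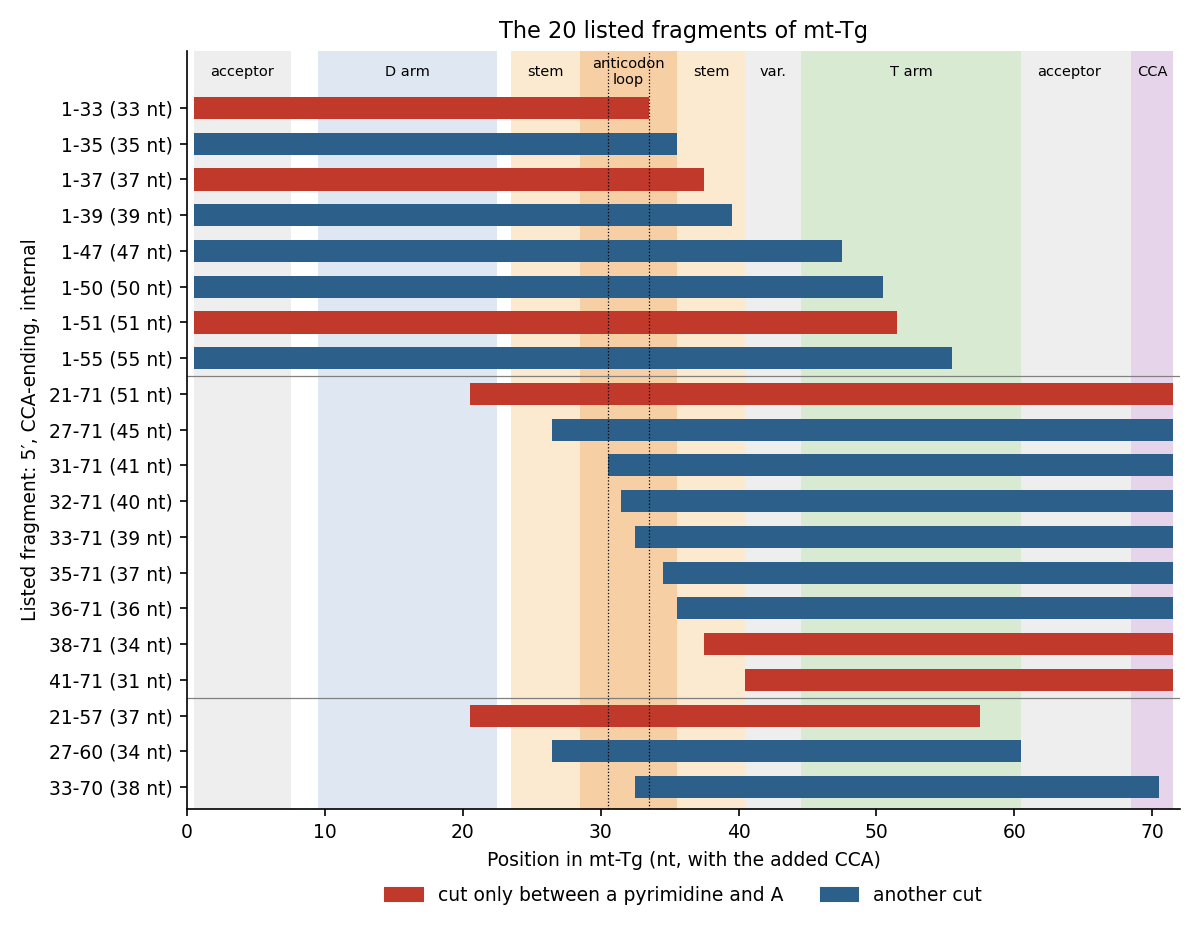
Map of the 20 listed fragments along mt-Tg, with the position in the tRNA (nt, with the added CCA) on the horizontal axis and each fragment as a bar, grouped from top to bottom as 5′, CCA-ending and internal. Shading marks the arms of the tRNA, dotted lines bound the anticodon at positions 31 to 33, red bars are fragments whose cuts all lie between a pyrimidine and an A and blue bars are the others. The 5′ fragments end at position 33 or later and the CCA-ending fragments begin at position 41 or earlier.

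The ends inside the gene, with that of 1-55 included, defined 17 cut sites among the 67 places between neighbouring bases. The anticodon loop, positions 29 to 35, was cut at every place between positions 30 and 35. CCA-ending fragments began at positions 31, 32, 33 and 35 in this loop, so some kept the whole anticodon and others kept only its last base or bases or none of it. The stem on the 3′ side of the loop was cut after positions 35, 37, 39 and 40. The T arm, positions 45 to 60, was cut after positions 47, 50, 51, 55 and 57, and at its edge after position 60. In the 5′ part of the tRNA, cuts lay after position 20 in the D arm and after position 26 in the anticodon stem. Of the 17 cut sites, 6 lay between a pyrimidine and an A (after positions 20, 33, 37, 40, 51 and 57), as do 12 of the 67 places in the gene. This is the step at which ribonucleases of the RNase A family cut most readily. Whether such an enzyme acted on these tRNAs was not tested. The 7 fragments whose cuts all lie at this step were 1-33, 1-37, 1-51, 21-57, 21-71, 38-71 and 41-71, and they are called pyrimidine-A fragments here.

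Levels are given as normalized reads, which are reads divided by the size factor of the library. The size factors were 0.509, 1.01 and 1.20 in db/db replicates 1, 2 and 3, and 1.68, 1.59 and 0.668 in db/+ replicates 1, 2 and 3. The 20 fragments were read 218, 888 and 1061 times in db/db replicates 1, 2 and 3. In db/+ replicates 1, 2 and 3 they were read 2917, 3571 and 2696 times. Db/db replicate 1 therefore had the least precise values. The mt-Tg fragments made up between 15.7% and 20.8% of the listed mitochondrial tRF reads in db/db libraries, and between 11.5% and 15.2% in db/+ libraries. These are shares of a list chosen for its decrease, not of the library. A read stands for a whole fragment, so levels were not divided by length.

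All 20 fragments together summed to 428, 884 and 882 normalized reads in db/db islets, against 1737, 2241 and 4036 in db/+ islets. The group means were 731 ± 262 in db/db and 2671 ± 1208 in db/+ (SD, n = 3 each), a difference of -1.85 on the log2 scale that turned to 0.47 when the libraries were scaled by TMM factors computed from the list itself. No db/db mouse reached the lowest db/+ mouse, and the exact permutation test gave p = 0.1, two-sided, the smallest that 3 mice against 3 allow. Each fragment was listed for a decrease in these same libraries, so the separation and this p repeat that choice and do not test it. Db/+ replicate 3 stood well above the other db/+ mice, and without it the difference was -1.51. Fewer islet cells with these fragments and fewer fragments per cell cannot be told apart in bulk islet RNA.

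Among the 5′ fragments, 1-51 dominated. This piece holds the D arm, the whole anticodon arm and the T arm as far as its loop. It had 224, 473 and 520 normalized reads in db/db islets, against 746, 834 and 1965 in db/+ islets. The groups did not overlap, but db/+ replicates 1 and 2 were less than 2-fold above db/db replicates 2 and 3, and db/+ replicate 3 was far above both. The log2 fold change was -1.54 (SE 0.72, adjusted p = 0.0542 from edgeR), which made 1-51 the only mt-Tg fragment that missed the call. Without db/+ replicate 3 the log2 fold change was -0.96 (adjusted p = 0.0844), and without db/+ replicate 1 it was -1.78 and passed (adjusted p = 0.0484).

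Fragment 1-33 stops at the last base of the anticodon. It had 41.3, 63.7 and 36.6 normalized reads in db/db islets, against 132, 166 and 395 in db/+ islets. Its log2 fold change was -2.28 (SE 0.72, adjusted p = 0.0104 from edgeR), without db/+ replicate 3 it was -1.65 (adjusted p = 0.0209), and without db/db replicate 3 it was -2.13 and did not pass (adjusted p = 0.0549). Fragment 1-37 reaches into the stem beyond the loop, with 41.3, 71.6 and 39.1 normalized reads in db/db islets and 101, 134 and 403 in db/+ islets. As for 1-33, no db/db value reached the lowest db/+ value, and db/+ replicate 3 was the highest. The log2 fold change of 1-37 was -2.06 (SE 0.75, adjusted p = 0.0199 from edgeR), and without db/+ replicate 3 it was -1.21 and no longer passed (adjusted p = 0.0810). Nor did it pass without db/db replicate 1 or 3 (adjusted p = 0.0550 and 0.0782 from edgeR).

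Fragment 1-55 ends past the T loop cut of 1-51. It had 29.5, 61.7 and 58.2 normalized reads in db/db islets, against 134, 141 and 228 in db/+ islets, and fell by 1.74 on the log2 scale (adjusted p = 0.0229 from edgeR). It did not pass without db/db replicate 2 or 3 or db/+ replicate 2 (adjusted p = 0.0515, 0.0637 and 0.0611 from edgeR). The groups were well separated, and db/+ replicates 1 and 2 lay close to each other. Fragment 1-50 is 1 base shorter than 1-51 and ends before a T instead of an A. It had 21.6, 21.9 and 40.7 normalized reads in db/db islets, against 70.3, 111 and 56.9 in db/+ islets. The db/+ mice were thus ordered differently in these neighbours, with replicate 3 the lowest for 1-50 and the highest for 1-51. The log2 fold change of 1-50, -1.49 (SE 0.58, adjusted p = 0.0259 from edgeR), was the smallest among the 20, next to that of 1-51. It did not pass without db/db replicate 1 or 2 or db/+ replicate 2 (adjusted p = 0.0561, 0.0993 and 0.140 from edgeR).

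The CCA-ending fragment with the highest mean over the 6 libraries was 33-71, which begins at the last base of the anticodon. In db/db islets alone 27-71 was level with it, at a mean of 19.9 normalized reads, against 19.5 for 33-71. Fragment 33-71 had 3.93, 18.9 and 35.7 normalized reads in db/db islets, against 116, 206 and 71.9 in db/+ islets. The groups did not overlap, and db/+ replicate 3 was here the lowest of the db/+ mice. Its log2 fold change was -2.69 (SE 0.78, adjusted p = 0.00724 from edgeR), and without db/+ replicate 3 it was -2.96. In db/db replicate 1 this value rests on 2 reads. The internal fragment 33-70, which begins at the same base and lacks the final A, fell by 2.32 on the log2 scale (adjusted p = 0.00445 from edgeR). Fragment 21-71 begins in the D arm at a pyrimidine-A step. It had 7.86, 25.9 and 13.3 normalized reads in db/db islets, against 28.6, 56.5 and 299 in db/+ islets. Db/+ replicate 3 was far above all other libraries, and the log2 fold change of -2.98 became -1.37 without it. Fragment 27-71, which begins in the anticodon stem, was above 21-71 in db/+ replicates 1 and 2, and below it in db/+ replicate 3.

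The 2 most extreme fold changes belonged to internal fragments, which were also scarce. Fragment 27-60 had 0, 1 and 1 reads in db/db islets, against 18, 28 and 5 reads in db/+ islets. From the 2 and 51 reads of the groups, scaled by the size factors, the ratio of db/db to db/+ was 0.0569, with an exact 95% interval of 0.00671 to 0.216 that covers counting error only. Its fitted log2 fold change was -3.89 (SE 0.89, adjusted p = 0.00445 from edgeR). Fragment 21-57, with a pyrimidine-A cut at both ends, had 0, 7.96 and 3.33 normalized reads in db/db islets, against 4.76, 17.6 and 117 in db/+ islets. It was the only mt-Tg fragment whose groups overlapped, since db/db replicate 2 lay above db/+ replicate 1. Its log2 fold change of -3.37 (SE 1.08, adjusted p = 0.0113 from edgeR) became -1.34 without db/+ replicate 3, and without db/db replicate 1 the fragment did not pass (adjusted p = 0.0561 from edgeR).

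**Figure D2:**
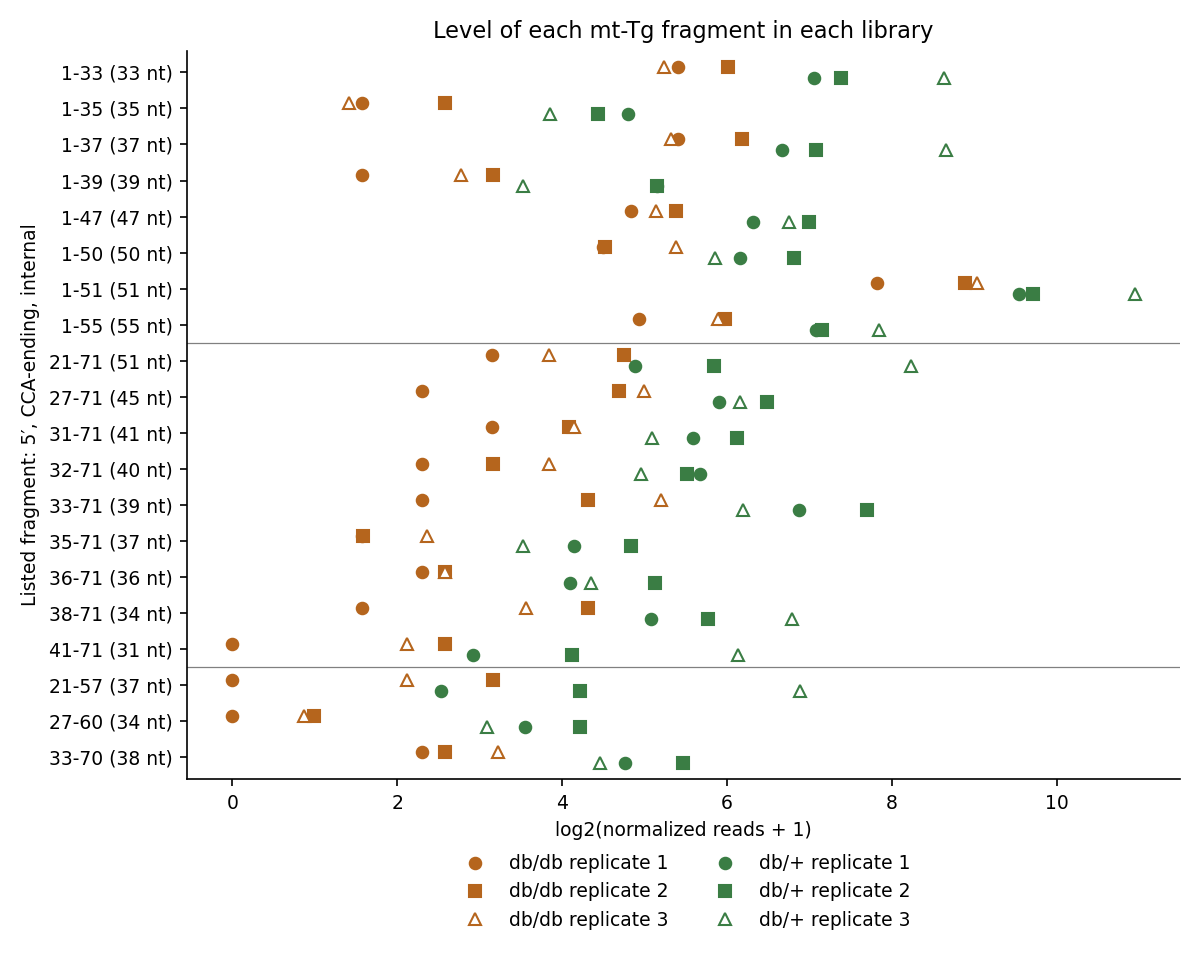
Level of each fragment in each library, as log2(normalized reads + 1) on the horizontal axis, with the fragments from top to bottom as 5′, CCA-ending and internal, db/db mice in orange, db/+ mice in green and the replicate number as the symbol. Db/db symbols lie left of every db/+ symbol in 19 of the 20 fragments, and the green triangle of db/+ replicate 3 is the rightmost for 1-51 but the leftmost of the db/+ symbols for 33-71.

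In all, 19 of the 20 fragments were called lower, which took a Benjamini-Hochberg adjusted p no higher than 0.05 in edgeR's quasi-likelihood test and a level at least 2-fold lower, while 97.6% of all listed tRFs did. In 19 of the 20, the highest db/db library was below the lowest db/+ library, while this held for 94.7% of all listed tRFs. Both shares are those of the list, which was chosen on the same libraries, and nothing about mt-Tg is read from them. The median log2 fold change was -2.28 over the 20 fragments and -2.42 over all 170 listed tRFs. Under TMM factors from the list, which remove the decrease that all listed tRFs share, the medians were -0.13 and -0.22, none of the 20 was called and 8 of them lay above 0. The 5′ fragments had a median of -1.90 (-2.77 to -1.49), the CCA-ending fragments of -2.51 (-3.16 to -1.81) and the internal fragments of -3.37 (-3.89 to -2.32). A scarce fragment needs a larger fall to be called, and mean levels over the 6 libraries ran from 6.27 for 27-60 to 794 for 1-51. These medians are therefore not a comparison of the end classes. The fragments overlap in sequence and come from 1 tRNA, so they are not independent of each other.

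**Figure D3:**
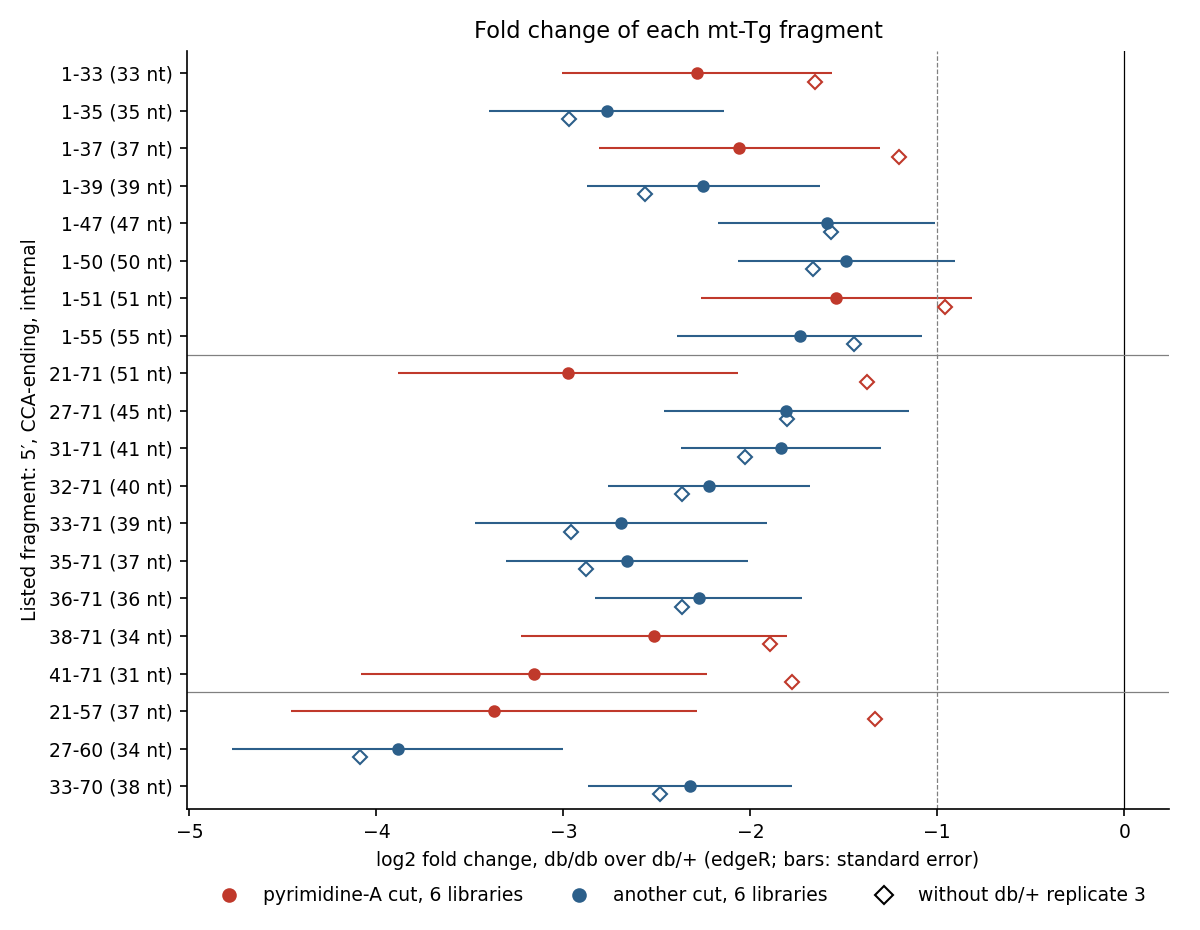
Log2 fold change of each fragment, db/db over db/+, from edgeR with the size factors solved from the table, with the standard error as a bar, for pyrimidine-A fragments (red) and the others (blue), and without db/+ replicate 3 as open diamonds. All filled points lie between -3.89 and -1.49, and the diamonds of the red fragments lie to the right of their points, with the largest move for 21-57 (-3.37 with all 6 libraries and -1.34 without that mouse).

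Whether the listed CCA-ending and the listed 5′ fragments fell alike was asked within each library, as the ratio of their reads, which needs no size factor. Pieces that were not called decreased are missing from both, so the ratio does not compare the whole 3′ side of the tRNA with the whole 5′ side. A scarce fragment also needs a larger fall to be listed. The highest mean level over the 6 libraries was 75.4 among the CCA-ending fragments (33-71), against 794 for 1-51 among the 5′ fragments. The p of the ratio therefore does not test a difference of the classes apart from the choice of the list. CCA-ending fragments held 18 of 218, 125 of 888 and 160 of 1061 listed mt-Tg reads in db/db replicates 1, 2 and 3. These are shares of 8.26% (95% Wilson interval 5.29 to 12.7), 14.1% (11.9 to 16.5) and 15.1% (13.1 to 17.4). In db/+ replicates 1, 2 and 3 the shares were 21.5% (20.01 to 22.99), 26.5% (25.1 to 28.02) and 17.7% (16.3 to 19.1). Every db/db share was below every db/+ share, although the interval of db/db replicate 3 overlapped that of db/+ replicate 3. The log2 ratio of CCA-ending to 5′ reads was -3.42, -2.58 and -2.47 in db/db islets, against -1.83, -1.40 and -2.16 in db/+ islets. The difference was -1.03, with an exact permutation p of 0.1, two-sided, and 0.25 after adjustment over 5 measures of composition. Without 1-51 it was -0.77 (exact p = 0.2), and without db/db replicate 1 it was -0.73 (exact p = 0.2).

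By level, the CCA-ending fragments summed to 35.4, 124 and 133 normalized reads in db/db islets, against 373, 595 and 713 in db/+ islets. The 5′ fragments summed to 389, 745 and 737 in db/db islets, against 1323, 1568 and 3178 in db/+ islets. The log2 differences were -2.67 for the CCA-ending sum and -1.65 for the 5′ sum, and without db/+ replicate 3 they were -2.48 and -1.27. Internal fragments summed to 2, 14 and 15 reads in db/db libraries and 70, 125 and 97 reads in db/+ libraries.

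Fragment 1-51 took a larger part of the mt-Tg reads in db/db islets. It held 52.3% (95% Wilson interval 45.7 to 58.8), 53.5% (50.2 to 56.7) and 59.0% (56.0 to 61.9) in db/db replicates 1, 2 and 3. In db/+ replicates 1, 2 and 3 it held 42.9% (41.1 to 44.7), 37.2% (35.6 to 38.8) and 48.7% (46.8 to 50.6). The groups did not overlap, and the difference was 11.98 percentage points (exact permutation p = 0.1, two-sided, adjusted p = 0.25). The mean length of the 5′ reads was 48.2 ± 0.97 nt in db/db and 47.3 ± 0.30 nt in db/+ islets (SD, n = 3 each), a difference of 0.89 nt (exact permutation p = 0.2, adjusted p = 0.33) that was 0.36 nt without db/db replicate 3. For the CCA-ending reads it was 41.7 ± 0.51 nt in db/db and 41.3 ± 1.55 nt in db/+ islets (SD, n = 3 each), a difference of 0.38 nt (exact permutation p = 0.8, adjusted p = 0.8). This difference turned to -0.059 nt without db/+ replicate 1 and to -0.085 nt without db/+ replicate 2, and was 1.27 nt without db/+ replicate 3 and 0.14 nt without db/db replicate 1. The difference in the length of the 5′ reads was close to the spread between the db/db mice, and that of the CCA-ending reads was below the spread in either group.

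**Figure D4:**
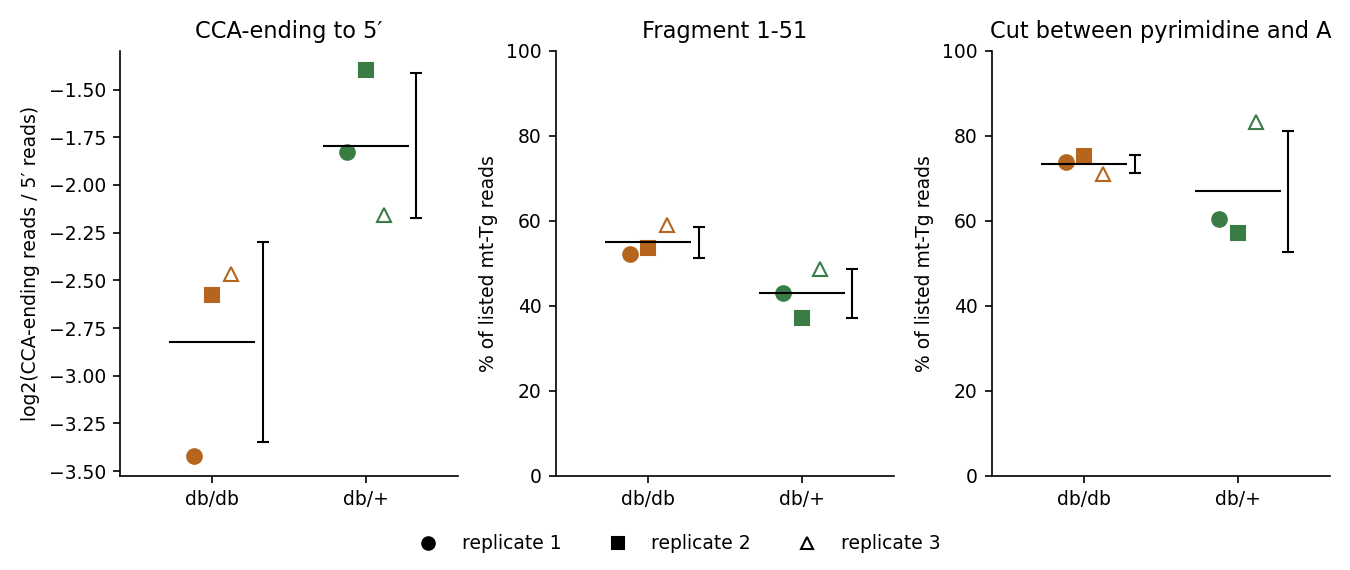
Composition of the listed mt-Tg reads in each library, with db/db left of db/+, symbols for replicates 1, 2 and 3, a horizontal line for the group mean and a bar for ± 1 SD (n = 3). The left panel is the log2 ratio of CCA-ending to 5′ reads, the middle panel is the percent of mt-Tg reads in 1-51 and the right panel is the percent in pyrimidine-A fragments. The groups are apart in the left and middle panels and overlap in the right one, where db/+ replicate 3 lies at 83.2%.

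Only 2 pairs of listed pieces join into 1 full tRNA of 71 nt. The cut site after position 35, at the border of the loop and the stem, lies between 1-35 (35 nt) and 36-71 (36 nt). Whether the pieces of a pair came from the same molecules was not tested. Fragment 1-35 had 1, 5 and 2 reads in db/db libraries and 45, 33 and 9 reads in db/+ libraries. Fragment 36-71 had 2, 5 and 6 reads in db/db libraries and 27, 54 and 13 reads in db/+ libraries. Both pieces were scarce and of similar number. Their log2 ratio, 36-71 over 1-35, differed by 0.54 between db/db and db/+ mice (exact permutation p = 0.4, two-sided, 0.4 adjusted over the 2 pairs), and by 0.10 without db/+ replicate 1, 0.21 without db/db replicate 3 and 0.90 without db/db replicate 2. The log2 fold changes were -2.77 for 1-35 and -2.28 for 36-71 (adjusted p = 0.00445 from edgeR for each).

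The cut site after position 37, a pyrimidine-A step in the stem, lies between 1-37 (37 nt) and 38-71 (34 nt). Fragment 1-37 had 21, 72 and 47 reads in db/db libraries and 169, 214 and 269 reads in db/+ libraries. Fragment 38-71 had 1, 19 and 13 reads in db/db libraries and 55, 85 and 73 reads in db/+ libraries. The 5′ piece thus outnumbered its partner in all 6 libraries. Their log2 ratio, 38-71 over 1-37, was -3.84, -1.89 and -1.81 in db/db islets, against -1.61, -1.33 and -1.87 in db/+ islets. It differed by -0.91 (exact permutation p = 0.2, two-sided, adjusted p = 0.4), which became -0.25 without db/db replicate 1, where 38-71 had a single read. The log2 fold change of 38-71 was -2.51 (SE 0.71, adjusted p = 0.00664 from edgeR), set beside -2.06 for 1-37.

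Of the 5 fragments with the highest mean level, only 1-37 had a listed partner that meets it. Fragment 1-33 overlaps 33-71 by 1 base, and 35-71 starts 1 base beyond the base that follows it. Its exact partner would begin at position 34. The partners of 1-47, 1-50, 1-51 and 1-55 would begin in the T arm, where no listed CCA-ending fragment does. Fragments that were not called decreased are not in the table, so a missing partner says nothing of its level.

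The levels by cut site showed a difference among the db/+ mice that followed the bases at the cut. For all 7 pyrimidine-A fragments, db/+ replicate 3 was the highest of the db/+ mice, at 2.49 to 10.5 times the mean of db/+ replicates 1 and 2 (median 3.43). For the other 13 fragments the ratio was 0.303 to 1.65 (median 0.603), and replicate 3 was the highest for 1-55 alone and the lowest for 9 of the 13. The same split held for the listed fragments of the other mitochondrial tRNAs that could be matched by sequence. There db/+ replicate 3 was the highest of the db/+ mice for 36 of 40 pyrimidine-A fragments and for 7 of 73 others. Db/+ replicate 3 also had the smallest size factor of its group. What sets this library apart was not tested.

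**Figure D5:**
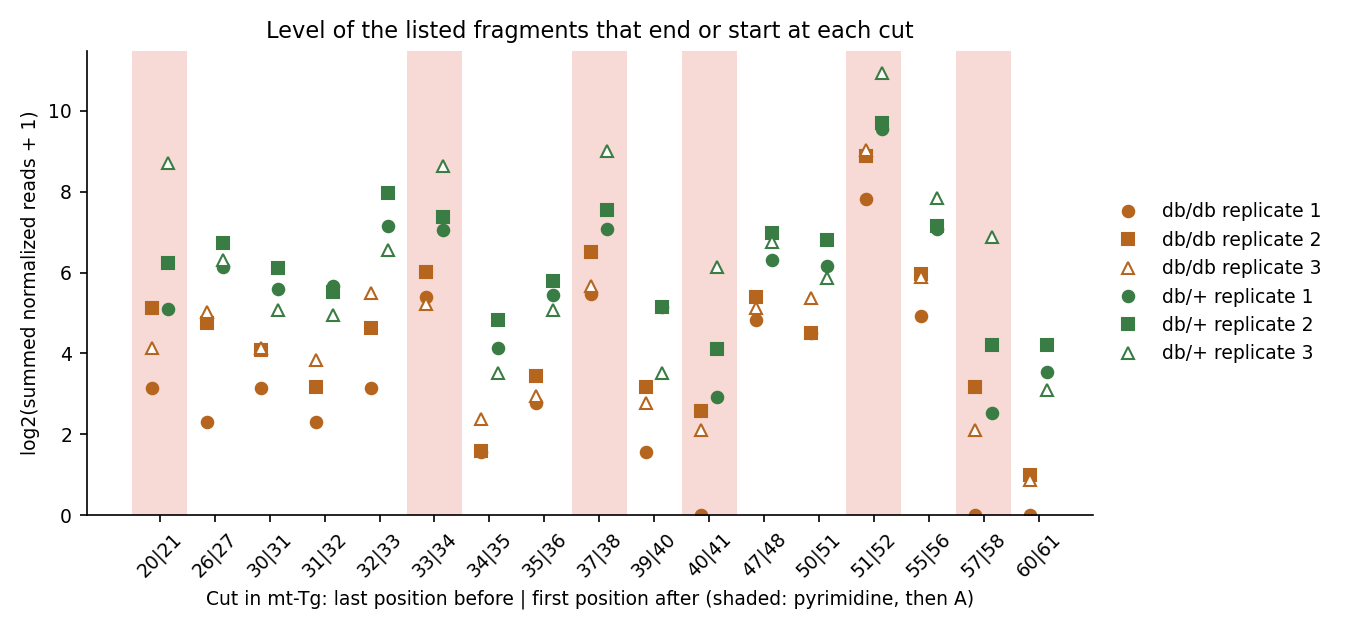
Summed level of the listed fragments that end or start at each of the 17 cut sites, as log2(summed normalized reads + 1), with db/db libraries in orange to the left of db/+ libraries in green at each site and pyrimidine-A steps shaded. At the 6 shaded sites the green triangle of db/+ replicate 3 is the highest symbol, and at most of the unshaded sites it lies below the other db/+ symbols.

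This mouse therefore touches the comparison of the groups by cut context. Pyrimidine-A fragments held 73.9% (95% Wilson interval 67.6 to 79.2), 75.3% (72.4 to 78.1) and 71.1% (68.3 to 73.7) of the listed mt-Tg reads in db/db replicates 1, 2 and 3. In db/+ replicates 1, 2 and 3 they held 60.5% (58.7 to 62.3), 57.01% (55.4 to 58.6) and 83.2% (81.7 to 84.6). The db/db mice thus lay between db/+ replicate 3 and the other db/+ mice. The difference of the means was 6.51 percentage points (exact permutation p = 0.4, two-sided, adjusted p = 0.5), and without db/+ replicate 3 it was 14.7 (exact p = 0.1). It was 3.31 without db/+ replicate 1 and 1.57 without db/+ replicate 2. Fragment 1-51 made up most of this share, and without it the difference was -2.67 percentage points.

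By level, pyrimidine-A fragments summed to 316, 666 and 627 normalized reads in db/db islets, against 1051, 1278 and 3358 in db/+ islets. The other fragments summed to 112, 218 and 255 in db/db islets, against 686, 963 and 678 in db/+ islets. The log2 difference was -1.70 for the pyrimidine-A sum, and -1.18 without db/+ replicate 3. For the sum of the others it was -2.05, and -2.14 without that mouse. Over single fragments, the median log2 fold change of the 7 pyrimidine-A fragments was -2.51 with all libraries and -1.37 without db/+ replicate 3. For the other 13 it was -2.25 and -2.37. The sums of both kinds were lower in every db/db mouse than in any db/+ mouse, which repeats the choice of the list.

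Among the 19 mitochondrial tRNAs with listed fragments, tRNA-Gly ranked 3 by number of fragments, 2 by summed level in db/db islets and 3 by summed level in db/+ islets. Of the 11 with both 5′ and CCA-ending fragments, 6 had a lower and 5 a higher log2 ratio of CCA-ending to 5′ reads in db/db islets. The difference was -1.03 for tRNA-Gly, the lowest of the 11, -0.78 for tRNA-His, the next, and up to 0.73, with a median of -0.04. These values come from the same 6 libraries and are given as a description, with no test between tRNAs.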

How the data were processed

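The authors sequenced small RNA of islets with 1 library per mouse, after treatment with the rtStar pretreatment kit, and required at least 2 reads to call a tRF. The deposited table holds the authors' raw counts, whole reads per tRF and library, and a mean signal, the deposited mean over the 6 libraries of counts divided by DESeq2 size factors. The aligner, the genome build of the mapping and any collapsing of reads by molecular identifier were not given in the sources used here. Fold changes, standard errors, test statistics and p-values, also deposited, are the authors' own comparison and were not used. The table does not give the sequencing depth, and every interval covers counting error only. The labels and the paper number the mice differently, so a replicate number stands for 1 mouse of its group.

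The size factors were solved by least squares from the counts and the deposited means. Each fragment was placed by exact match to the mt-Tg transcript of GENCODE M21 (GRCm38) with CCA added. All 170 listed tRFs were tested with edgeR 4.0.16 (quasi-likelihood, R 4.3.3), with library sizes proportional to the size factors, no filter and Benjamini-Hochberg adjustment over the 170. Single values were compared by two-sided exact permutation tests. Ratios used a pseudocount of 0.5 and sums a pseudocount of 1. The edgeR step was also run on simulated counts in which only part of the tRFs were lowered. The list is unlike this, so that run does not check the calls. DESeq2 1.42.0, TMM factors from the list, a mean level of at least 20, a pseudocount of 5, leaving out 1-51, a replicate block and leaving out each library were tried as alternatives. Sums by cut context without db/+ replicate 3 and ratios of that library to the other db/+ libraries were added after the data were seen. Values per library are printed for the 5 most abundant fragments, both pieces of each pair, the 2 largest and 2 smallest fold changes and the lead fragment of each class, and 21-71 was added after its values were seen. The fragments and lists were chosen with earlier results of these data known. Python 3.11.15, NumPy 2.4.6, pandas 2.3.3, SciPy 1.17.1 and matplotlib 3.10.9 were used.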

Additional observations from a re-analysis of the deposited data

How the results depend on the processing

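The calls rest on the size factors. TMM factors computed from the list itself centre the list near 0 (median over all listed tRFs -0.22 in place of -2.42). With them, edgeR called 0 of the 20 fragments and 0 of all 170 listed tRFs. None of the 20 had an unadjusted p of at most 0.05. DESeq2 with the size factors called 20 of the 20 and 170 of the 170, which repeats the choice of the list. Under TMM the difference in summed level became 0.47, and the log2 fold change turned to 0.093 for 1-33, 0.31 for 1-37, 0.72 for 1-47, 0.79 for 1-50, 0.74 for 1-51, 0.52 for 1-55, 0.33 for 27-71 and 0.35 for 31-71. Most 5′ fragments and 2 CCA-ending ones thus lay above 0. Under this scaling that is a smaller fall than the centre of the list, and does not show a higher level in db/db islets. Of the 13 fragments with a mean level of at least 20, 12 were called, as were 104 of the 107 listed tRFs at that level. Leaving out each library in turn, the calls ranged from 15, without db/db replicate 3, to 20, without db/+ replicate 1. Over all 170 listed tRFs, the calls without these libraries were 143 and 162, which were also the lowest and the highest. All 20 fold changes of mt-Tg fragments stayed below 0, which repeats the choice of the list. The fragments not called then were 1-37, 1-50, 1-51 and 21-57 without db/db replicate 1 (16 called), 1-50, 1-51 and 1-55 without db/db replicate 2 (17), 1-33, 1-37, 1-47, 1-51 and 1-55 without db/db replicate 3, 1-47, 1-50, 1-51 and 1-55 without db/+ replicate 2 (16), and 1-37 and 1-51 without db/+ replicate 3 (18). The summed level ranged from -2.11 to -1.50 and the ratio of CCA-ending to 5′ reads from -1.21 to -0.73. The length difference of CCA-ending reads ranged from -0.085 to 1.27 nt and was -0.06 without db/+ replicate 1 and -0.085 without db/+ replicate 2. That of 5′ reads ranged from 0.36 to 1.30 nt, and the ratio of the pair cut after position 35 from 0.10 to 0.90. The pyrimidine-A share was -2.67 percentage points without 1-51 and ranged from 1.57 to 14.7 over the left-out libraries. With a pseudocount of 5, the ratio of the pair cut after position 37 was -0.23 and that of the pair cut after position 35 was 0.17. The change under TMM follows from the scaling, and a larger pseudocount draws a log2 ratio of few reads toward 0. The cause of the other changes was not tested.

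Same-numbered mice of the groups did not deviate together (correlations 0.21, -0.26 and -0.22). Correlations of differently numbered mice ran from -0.42 to 0.41, so this check cannot decide whether the numbers pair the mice. The labels state no pairing, and the main tests took the mice as unpaired. With a replicate block, 19 of the 20 fragments were called by edgeR, and 161 of all 170 listed tRFs. Here 1-51 passed (adjusted p = 0.0324) and 1-50 did not (adjusted p = 0.0525). The ratio of CCA-ending to 5′ reads was -1.03 with the block, which equals the value without it by construction, so the block is no check of it. Low counts in db/db replicate 1, with 218 mt-Tg reads, limit every ratio that rests on it.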
